A study of Rattus norvegicus with 20 samples.

Results

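Oxidative stress defence was followed through 10 genes: Hmox1, Blvra, Nqo1, Gclc, Gclm, Txnrd1, Sod2, Gpx1, Cat and Nudt1. They were found as the probes whose RefSeq accession belongs to one of these genes. All 10 were on the array and passed the filter on dim probes, among 36043 genes tested. The members were chosen by a list drawn up with measured levels of these samples known, and Blvra and Nudt1 were selected on their levels by obesity group in both tissues. Their levels and differences are therefore described and not tested.

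Female Sprague-Dawley (Jcl:SD) rats gave mammary adenocarcinomas and normal mammary tissue. Obesity-prone (OP) and obesity-resistant (OR) rats ate a diet with 45 kcal% fat and were told apart by body weight at 7 weeks of age. The lean controls (LC) were kept on standard food with 10 kcal% fat. Each of these groups of 30 rats received 4 Gy of whole-body gamma rays from Cs-137 at 0.5 Gy per min at 7 weeks and stayed on its diet while palpable cancers were watched for over 30 weeks, so that every group had been irradiated. The 12 cancers (6 OP, 3 OR and 3 LC) had been chosen for homogeneous histology without necrosis or marked infiltrate, and the 8 normal tissues (3 OP, 2 OR and 3 LC) came from rats of matched age. One array was hybridised per sample. The labels do not say that every sample came from its own rat, so a p-value here reflects spread among samples that may share an animal.

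Haem oxygenase (Hmox1) opens the haem ring to biliverdin, and biliverdin reductase (Blvra) turns that into bilirubin, itself an antioxidant. Nqo1 reduces quinones, Gclc and Gclm are the catalytic and the modifier subunit of the enzyme that commits cysteine and glutamate to glutathione, and Txnrd1 keeps thioredoxin reduced. Sod2 removes superoxide in mitochondria, Gpx1 and Cat remove peroxides, and Nudt1 (also called MTH1) clears oxidised purine nucleotides before they enter DNA. Several of these genes are known targets of the transcription factor NRF2, encoded by Nfe2l2. NRF2 is held back by KEAP1 and binds antioxidant response elements together with a small MAF protein.

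The core of that element was searched for in the promoters, since several of these genes are known targets of NRF2. RefSeq promoter windows of build GRCr8, which run from 250 bases before to 50 bases after a start, were present for 9 of the members in 10 windows, as Txnrd1 has a pair of starts. The letters TGACNNNGC, on either strand, occurred in 4 of the 10 windows, those of 4 genes, and in 12.1% of all 33469 windows. The 4 matches all read as GCNNNGTCA on the gene's strand. They are shown with 25 bases on each side, with the matched 9 bases in capitals.
Blvra: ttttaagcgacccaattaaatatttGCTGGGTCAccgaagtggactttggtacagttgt
Gclm: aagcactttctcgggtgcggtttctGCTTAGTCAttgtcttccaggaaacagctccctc
Txnrd1: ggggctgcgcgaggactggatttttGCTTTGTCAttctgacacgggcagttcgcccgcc
Sod2: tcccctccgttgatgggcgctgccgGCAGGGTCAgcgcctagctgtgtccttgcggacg

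The match in Blvra began 145 bases before the start (window chr3:134802660-134802959, plus strand), and that in Gclm 172 bases before it (chr2:213031885-213032184, plus strand). In Txnrd1 it began 78 bases before one of the starts (chr7:22755855-22756154, minus strand), and in Sod2 35 bases before the start (chr1:50050119-50050418, minus strand). The windows of Nqo1, Gclc, Gpx1, Cat and Nudt1 and the other Txnrd1 window did not hold these letters. A match is a run of letters and not a measured binding site, and its absence speaks only of these windows.

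Levels are given as log2 of the background-corrected and quantile-normalized array intensity, and differences are on the same log2 scale. A level of one gene cannot be set against that of another, because each probe has its own brightness. Detection was lower in the tumours: 61.3% to 79.3% of probes were well above background in cancers and 87.7% to 97.7% in normal tissue. The markers bore out the tissue labels. All 8 measured luminal epithelial markers rose in cancers (mean level 13.32 to 14.28 in cancers and 10.1 to 12.55 in normal tissue), and all 9 adipocyte markers fell (6.97 to 7.41 against 11.53 to 12.32). Of 9 macrophage markers 4 fell and none rose, and all 7 proliferation genes rose. All 3 endothelial markers fell (median difference -1.66), as did 3 of 4 fibroblast markers (-1.34), 1 of 2 erythroid markers (-1.61) and 1 of 5 skeletal muscle markers (-0.98). Of 3 myoepithelial markers 1 rose and 1 fell. These shifts accompany every difference between cancer and normal tissue below, where their part was not tested. In bulk tissue, fewer cells of a type and less RNA per cell cannot be told apart.

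**Figure D1:**
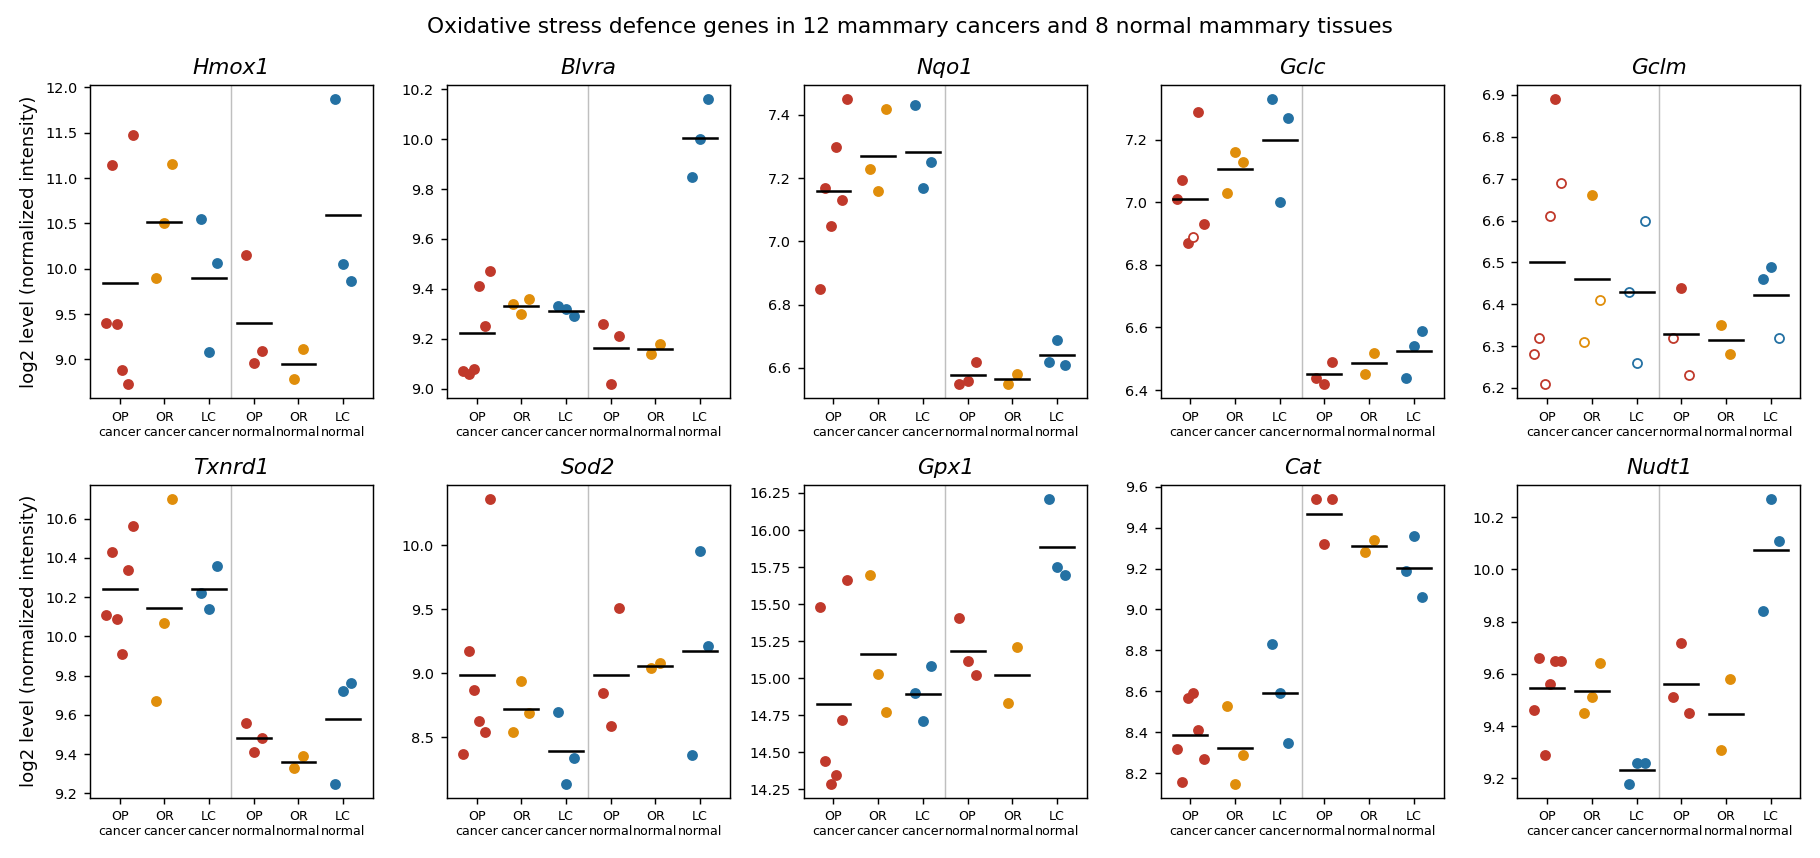
Log2 level (normalized array intensity) of each gene in every sample, by obesity group and tissue. Points are samples, filled where the probe was well above background, and bars are group means. Nqo1 and Gclc lay higher in every cancer than in every normal tissue on this scale (the direction turned under 75th-percentile scaling), Cat lay lower, and Blvra, Gpx1 and Nudt1 were highest in LC normal tissue.

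The first comparison asks how the defence genes of the tumours differ from those of normal tissue. Catalase had a negative and thioredoxin reductase a positive difference under all scalings tried. Relative to the median of all genes, however, catalase was not lower under every scaling. The quinone reductase Nqo1 and the glutathione subunit Gclc rose on the quantile scale and turned to negative differences under 75th-percentile scaling. Gclm, Hmox1, Sod2 and Gpx1 did not pass the test. The difference is the average of the cancer less normal differences in OP, OR and LC rats, tested by limma with Benjamini-Hochberg adjustment over all 36043 genes at an adjusted p of 0.05. Blvra and Nudt1 were left out of the count, since the normal tissue values that took part in their choice enter this difference. With 3 of the other 8 genes higher and 1 lower, the count stood beside 62.4% of all genes called in either direction, 29.0% higher and 33.5% lower. The share of members called was thus not above that of all genes. The median difference was 0.28 over the 8 members and -0.03 over all genes. Under 75th-percentile scaling of the processed signal and after normexp it was -0.48 and -0.42 over the members. Over all genes it was -1.51 and -0.8 under these scalings.

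Among the members Sod2, Gpx1 and Cat, only catalase, which splits hydrogen peroxide into water and oxygen, passed on the quantile scale with every sample. Its level was 8.16, 8.36 and 8.59 (lowest, median and highest) in the OP cancers. In the OR cancers it was 8.53, 8.15 and 8.29, and in the LC cancers 8.83, 8.59 and 8.35. Normal tissue lay above all of these, at 9.54, 9.32 and 9.54 in OP, 9.28 and 9.34 in OR, and 9.19, 9.36 and 9.06 in LC rats. Cat was lower in cancers by -0.89 (SE 0.0811, 1.85-fold, adjusted p 1.95e-07). Every cancer lay below every normal tissue, an arrangement that 11.6% of all genes showed.

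Txnrd1, the reductase that recharges thioredoxin, was brighter in cancers. On its brightest probe the OP cancers had 9.91, 10.22 and 10.56 (lowest, median and highest), the OR cancers 9.67, 10.07 and 10.7, and the LC cancers 10.22, 10.14 and 10.36. Normal tissue had 9.56, 9.41 and 9.48 in OP, 9.33 and 9.39 in OR, and 9.25, 9.72 and 9.76 in LC rats. The ranges overlapped only through 1 OR cancer, the first replicate at 9.67, which fell below a pair of LC normal tissues. The difference was 0.74 (SE 0.123, 1.67-fold, adjusted p 7.39e-05). The other probes of the gene moved in the same direction by unlike amounts. Probe A_44_P134070 differed by 1.58 (SE 0.176, adjusted p 1.49e-06 over 40072 probes), with 8.64 to 9.73 in cancers and 6.99 to 8.25 in normal tissue. Probe A_44_P456738 differed by 0.36 (SE 0.169, adjusted p 0.073) and was highest, at 9.47 to 9.67, in the 4 OP cancers that shared slide 4, so that slide and these samples cannot be told apart for it.

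Nqo1 and Gclc lay at low signal levels without overlap between the tissues. Nqo1 ranged from 6.85 to 7.45 over the 12 cancers and from 6.55 to 6.69 over the 8 normal tissues, and Gclc from 6.87 to 7.33 and from 6.42 to 6.59. By group, Nqo1 averaged 7.16 ± 0.207 (SD, n = 6), 7.27 ± 0.131 (n = 3) and 7.28 ± 0.134 (n = 3) in OP, OR and LC cancers, with 6.58 ± 0.0388 (n = 3), 6.56 ± 0.0158 (n = 2) and 6.64 ± 0.0452 (n = 3) in normal tissue. Gclc averaged 7.01 ± 0.156, 7.11 ± 0.0691 and 7.2 ± 0.178 in cancers and 6.45 ± 0.0323, 6.49 ± 0.0475 and 6.52 ± 0.0781 in normal tissue, in the same order. Neither gene overlapped between the tissues, which held for 8.63% of all genes in the direction of a higher level in cancers. Nqo1 was well above background on all 20 arrays, and Gclc on all but 1 OP cancer.

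On the quantile scale Nqo1 was higher in cancers by 0.64 (SE 0.0698, adjusted p 1.2e-06) and Gclc by 0.62 (SE 0.0614, adjusted p 4.69e-07), but both directions turned when arrays were scaled to their 75th percentile. From the processed signal scaled that way, Nqo1 differed by -0.44 (limma adjusted p 0.0987) and Gclc by -0.32 (0.223). After normexp background correction and the same scaling they differed by -0.38 (adjusted p 0.0285) and -0.39 (0.019). These scalings moved the median of all genes from -0.03 to -1.51 and -0.8. Relative to that median Nqo1 stood 1.07 and 0.42 higher and Gclc 1.2 and 0.41 higher. The split of all calls moved as well, from 46.4% higher on the quantile scale to 17.7% and 17.3%. Their place relative to the typical gene was thus higher under each of these scalings, while the sign of the absolute difference was not settled.

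Gclm, the modifier subunit, sat near the background. It was well above it on 1 of 6 OP, 1 of 3 OR and none of 3 LC cancers, and on 1 of 3 OP, 2 of 2 OR and 2 of 3 LC normal tissues. Its level ran from 6.21 to 6.89 in cancers and from 6.23 to 6.49 in normal tissue. The difference of 0.11 (SE 0.0901, limma adjusted p 0.304) did not pass the test. It turned to -2.63 (adjusted p 5.43e-05) and -0.81 (0.000317) under the 75th-percentile scalings of the processed signal and after normexp. Relative to the median of all genes, Gclm stood at -1.12 and -0.01 under these scalings.

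**Figure D2:**
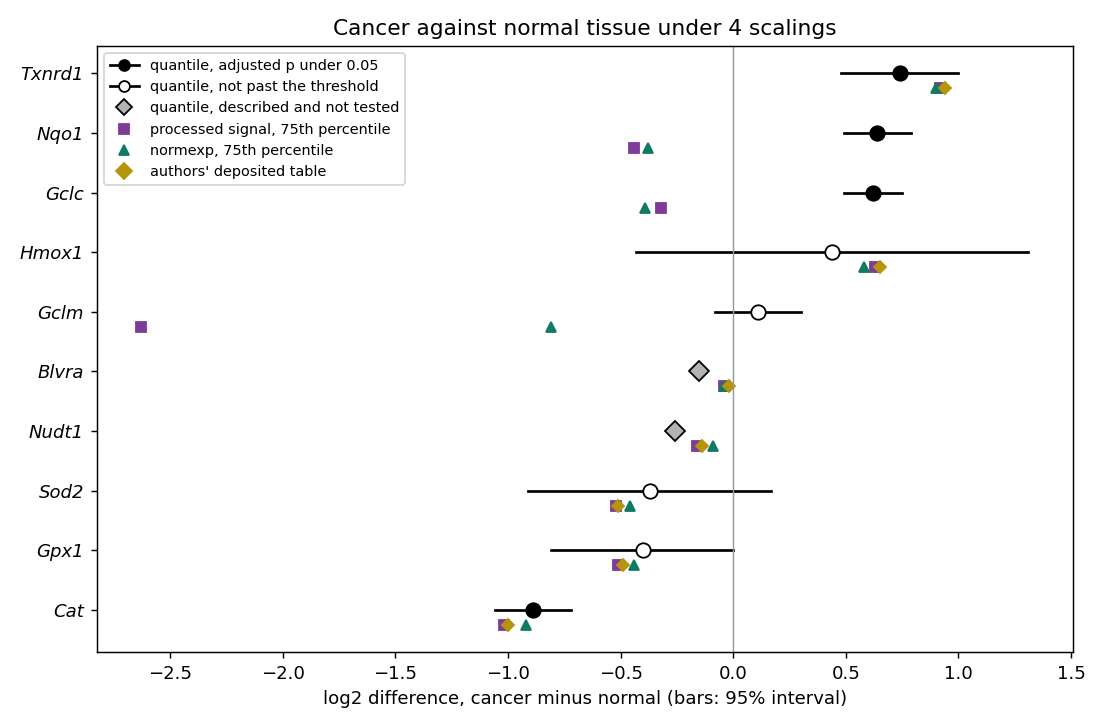
Log2 difference between cancers and normal tissue for each gene. Circles with 95% intervals are from the quantile-normalized values, filled where the adjusted p was under 0.05, diamonds without intervals are Blvra and Nudt1, which are described and not tested, and coloured marks give the same difference under 75th-percentile scaling of the processed signal, the same scaling after normexp, and in the authors' deposited table, which lacked Nqo1, Gclc and Gclm. Txnrd1 and Cat kept their side of 0, whereas Nqo1, Gclc and Gclm crossed it.

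Scaling did not move Cat and Txnrd1 across 0. Cat differed by -1.02 from the processed signal, by -0.92 after normexp with 75th-percentile scaling and by -1 in the value table, and Txnrd1 by 0.92, 0.9 and 0.94. Relative to the median of all genes, Cat stood at 0.49, -0.12 and -0.81, in the same order, and Txnrd1 at 2.43, 1.7 and 1.13. The place of Cat relative to the typical gene was thus not settled. Slides 4 and 5 held cancers only and were scanned on day 1, while all normal tissues were scanned on day 2. Tissue is therefore partly confounded with slide and scan day. Slides 1, 2 and 3 held both tissues. The cancers on slide 1 were OP replicate 1 and LC replicate 1. Slide 2 held OP cancer replicate 2 alone of the cancers, and slide 3 OR cancer replicate 1 alone. These few cancers were set against normal tissues of mixed obesity groups. Within slides 1, 2 and 3 Cat differed by -0.79, -1.16 and -0.78. Nqo1 differed there by 0.55, 0.57 and 0.63 and Gclc by 0.73, 0.6 and 0.5 on the quantile scale, which 75th-percentile scaling turns. Txnrd1 differed by 0.76 and 0.95 within slides 1 and 2 and by 0.13 within slide 3, whose only cancer was the OR sample at 9.67. With slide as a fixed block, limma gave -0.81 for Cat (adjusted p 4.26e-05) and 0.61 for Txnrd1 (0.0127). With scan day as a fixed block it gave -0.85 (2.12e-05) and 0.63 (0.00426).

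Nudt1, which removes oxidised purine nucleotides, differed by -0.26 (1.19-fold), a description only, since the LC values that took part in choosing the gene enter it. Within obesity groups, it was -0.84 in LC, -0.02 in OP and 0.09 in OR rats. It was -0.16 from the processed signal at the 75th percentile, -0.09 after normexp with that scaling and -0.14 in the value table. Relative to the median of all genes, Nudt1 stood at 1.35, 0.71 and 0.05, in the same order. Within slides 1, 2 and 3 the difference was -0.36, -0.1 and -0.26.

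Blvra differed by -0.15, again with the LC normal values in it and as a description. It was -0.04, -0.04 and -0.02 under the same 3 scalings, so that little of the difference was left there. Relative to the median of all genes, Blvra stood at 1.47, 0.76 and 0.17. Its within-slide values were -0.36, -0.32 and -0.17.

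Hmox1, the inducible haem oxygenase, varied more between samples than any other member. It ran from 8.73 to 11.48 in the OP cancers (median 9.4), and stood at 9.9, 10.5 and 11.16 in the OR cancers and 10.55, 9.08 and 10.06 in the LC cancers. Normal tissue had 10.15, 8.96 and 9.09 in OP, 8.78 and 9.11 in OR, and 11.87, 10.05 and 9.86 in LC rats. The ranges of the tissues overlapped over most of their width. The probe was printed in 10 spots, and the SD between spots of one array was 0.0834 to 0.208 (median 0.133), against an SD of 0.945 between cancers and 1.01 between normal tissues. The difference of 0.44 (SE 0.41, 95% interval -0.43 to 1.31, adjusted p 0.366) did not pass.

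Sod2, the mitochondrial superoxide dismutase, ranged from 8.14 to 10.36 in cancers and from 8.36 to 9.95 in normal tissue. Its difference was -0.37 (SE 0.253, 95% interval -0.91 to 0.17, adjusted p 0.216). Gpx1, the main cytosolic glutathione peroxidase, ranged from 14.29 to 15.7 in cancers and from 14.83 to 16.21 in normal tissue. Its difference was -0.40 (SE 0.192, adjusted p 0.0793), with -0.38 (SE 0.171, adjusted p 0.0628) on its other probe. Gpx1 passed in limma from the processed signal at the 75th percentile (-0.51, adjusted p 0.0195), after normexp with that scaling (-0.44, 0.0344) and in the value table (-0.49, 0.0224). Relative to the median of all genes, however, Gpx1 stood at 1.01, 0.36 and -0.3, in the same order. The place of Gpx1 relative to the typical gene was thus not settled. It also passed without OP cancer replicate 1 (-0.45, 0.0413) or OR cancer replicate 1 (-0.49, 0.036). With scan day as a fixed block its difference was -0.20 (adjusted p 0.522).

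OP cancer replicate 6 had the highest Hmox1 (11.48) and Sod2 (10.36) of the cancers and, within the OP cancers, the highest Gpx1 (15.66). Its mean level of the 9 macrophage markers was 13.52, against 10.96 to 12.52 in the other cancers. The 9 measured T and NK cell genes, a list added after the data were seen, averaged 9.82 there and 7.64 to 9.11 in the other cancers. Its fibroblast markers averaged 15.39, against 11.98 to 14.26 in the other cancers, and its skeletal muscle markers 10.98, against 7.29 to 9.21. Its luminal markers, at 13.32, were the lowest of the cancers. The part of these markers in its Hmox1, Sod2 and Gpx1 levels was not tested. Without this sample, Sod2 (-0.46, limma adjusted p 0.0436) and Gpx1 (-0.46, 0.0251) also fell, so that 6 of the 8 tested genes passed. The share of all genes called in that fit was not worked out, and nothing is read from this count.

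The same comparison was made within each obesity group for the 8 members other than Blvra and Nudt1. Nqo1, Gclc and Txnrd1 were higher and Cat lower in cancers in all 3 groups on the quantile scale, with the signs of Nqo1 and Gclc turned by 75th-percentile scaling in each group. In OP rats 4 of 8 members passed, in OR rats 4 of 8 and in LC rats 5 of 8. Of all genes, 44.6% passed in OP, 28.4% in OR and 43.6% in LC rats. Cat differed by -1.08 in OP (SE 0.122, limma adjusted p 1.34e-05), -0.98 in OR (SE 0.157, 0.000407) and -0.61 in LC rats (SE 0.14, 0.00268). Txnrd1 differed by 0.76 (adjusted p 0.00366), 0.79 (0.021) and 0.67 (0.0186). The Txnrd1 call in OR and LC rats did not survive slide as a fixed block (0.59, adjusted p 0.179, and 0.46, 0.214). It was also lost without OR cancer replicate 3 (0.52, adjusted p 0.0851) or either OR normal tissue (0.76, 0.103, and 0.82, 0.106), and without LC cancer replicate 3 (0.61, 0.0604) or LC normal replicate 1 (0.5, 0.0942).

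Gpx1 fell in cancers of LC rats, by -0.99 (SE 0.333, limma adjusted p 0.0247), and differed by -0.36 (0.328) in OP and 0.14 (0.809) in OR rats. A fixed slide block ended the LC call (-0.89, adjusted p 0.112), which was also lost without LC cancer replicate 1 (-0.99, 0.0578), LC cancer replicate 2 (-0.89, 0.0775) or LC normal replicate 1 (-0.83, 0.0952). Hmox1 differed by 0.44 in OP, 1.58 in OR and -0.69 in LC rats, and passed in none (adjusted p 0.591, 0.15 and 0.454). Sod2 differed by 0.01, -0.34 and -0.78 and Gclm by 0.17, 0.14 and 0.01, also without passing. The interaction, the OP difference less the mean of the OR and LC differences, was called for none of the 8 members. It was called for 0% of all genes (1547 of 36043 at an unadjusted limma p under 0.05, none of them a tested member). Because it averages OR with LC rats, it does not bear on the Gpx1 call in LC rats alone (interaction 0.06 for Gpx1). An interaction of LC against the other groups was not tested.

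**Figure D3:**
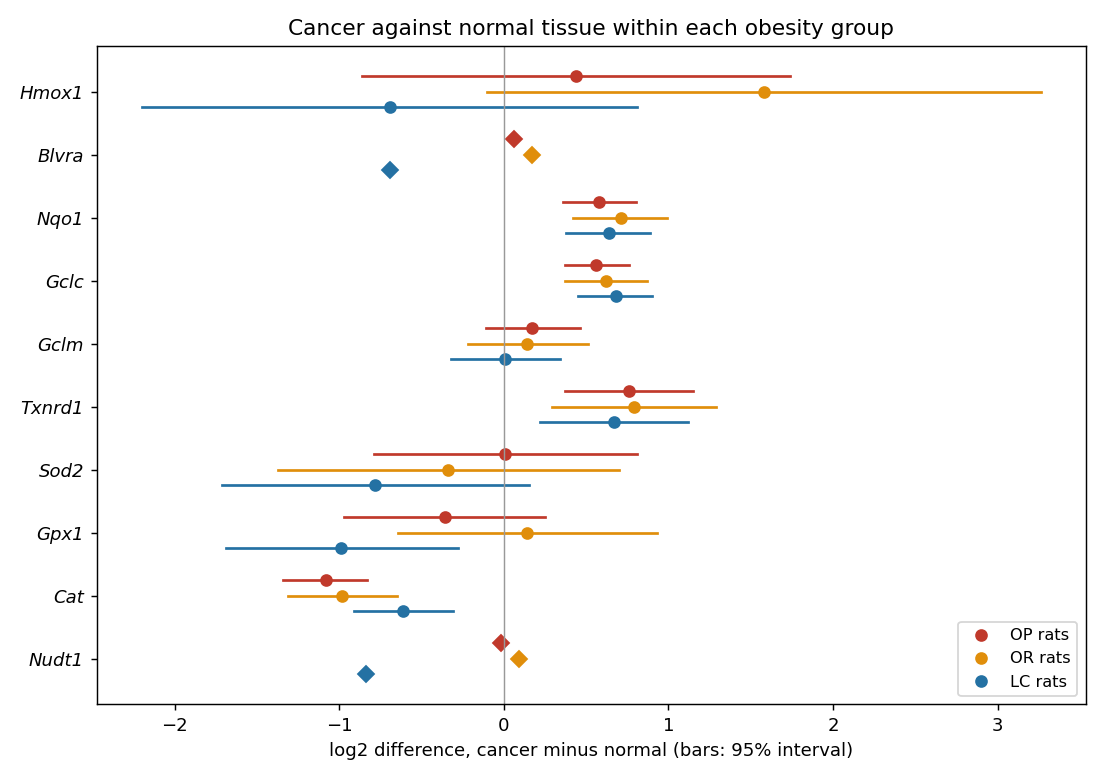
Log2 difference between cancer and normal tissue in OP, OR and LC rats, with 95% intervals from the fit over all 20 arrays. Diamonds without intervals are Blvra and Nudt1, which are described and not tested. Nqo1, Gclc (both turned by 75th-percentile scaling), Txnrd1 and Cat had the same sign in all 3 groups, while Blvra and Nudt1 were negative in LC rats at -0.69 and -0.84 and lay between -0.02 and 0.17 in OP and OR rats.

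Blvra was highest in the normal tissue of lean rats. Its level there was 9.85, 10 and 10.16. In normal tissue of OP rats it was 9.26, 9.02 and 9.21, and in OR rats 9.14 and 9.18. Every LC normal tissue lay above every normal tissue of the rats on the high-fat diet, by 0.84 (1.79-fold) from each group's mean, while OP and OR normal tissue differed by 0. The cancers lay close together: 9.06, 9.17 and 9.47 (lowest, median and highest) in OP, 9.34, 9.3 and 9.36 in OR, and 9.33, 9.32 and 9.29 in LC rats. The LC cancers thus stood at the level of the other cancers, and the high level was not seen there. The SD over the OP cancers (0.181) was wider than over the OR (0.0295) or LC cancers (0.0225).

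Nudt1 was likewise highest in LC normal tissue, at 9.84, 10.27 and 10.11. It was 9.51, 9.72 and 9.45 in OP and 9.31 and 9.58 in OR normal tissue. The LC mean was higher by 0.51 (1.43-fold) than that of OP and by 0.62 (1.54-fold) than that of OR tissue. In the cancers the order was turned round, with LC lowest at 9.18, 9.26 and 9.26. The OP cancers had 9.29, 9.6 and 9.66 (lowest, median and highest) and the OR cancers 9.45, 9.51 and 9.64. The LC cancers were lower by 0.31 (1.24-fold) than OP and by 0.3 (1.23-fold) than OR cancers. No LC sample overlapped the other groups of its tissue, in either tissue. Of all genes, 4.10% had every LC normal tissue above every other normal tissue and 0.638% had every LC cancer below every other cancer. Nothing is read from these shares for Blvra and Nudt1, whose levels took part in their choice.

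Gpx1 also had every LC normal tissue above every OP and OR normal tissue, as 4.10% of all genes did. It belongs to the same list, drawn up with levels of these samples known, so its order adds no support for Blvra and Nudt1. It stood at 16.21, 15.75 and 15.7 in LC, 15.41, 15.12 and 15.02 in OP and 14.83 and 15.21 in OR rats. Its other probe gave 15.58, 15.47 and 15.08 in LC and 14.38 to 14.83 in the other normal tissues. The difference was -0.70 (SE 0.187) for OP less LC and -0.86 (SE 0.209) for OR less LC tissue, which did not pass over all genes (limma adjusted p 0.318 and 0.291, unadjusted 0.00789 and 0.00493).

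The LC normal tissues also differed from the other normal tissues in their markers. The mean level of the 9 macrophage markers, all well above background on every array, was 13.32, 12.73 and 12.9 in LC normal tissue, above the 11.84 to 12.67 of OP and OR normal tissue. The 8 luminal markers averaged 10.1, 12.27 and 10.88 in LC and 12.21 to 12.55 in the others, and the 3 measured myoepithelial markers 10.05, 10.93 and 9.77 against 11.14 to 11.65. The adipocyte markers overlapped, with 11.53 to 12.32 in LC and 11.54 to 12.18 in the others. The 7 proliferation genes averaged 7.73, 9.58 and 8.91 in LC and 7.52 to 8.54 in the others. The 2 measured erythroid markers averaged 11.97, 9.42 and 9.21 in LC and 8.94 to 9.8 in the others. The T and NK cell genes were high in LC normal replicate 3 alone, at 11.09, with 7.77 to 8.2 in the other normal tissues. The part of these markers in the levels of Blvra, Nudt1 and Gpx1 was not tested.

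Among the 8 tested members, none passed between obesity groups within normal tissue (OP less OR, OP less LC, OR less LC, and OP less the mean of OR and LC). The share of all genes called in each of these limma comparisons was 0%. At an unadjusted p under 0.05, 2 members were found for OP less LC (Gpx1 and Cat) and 2 for OR less LC (Gpx1 and Hmox1), and none in the other comparisons, beside 3177 and 3235 of all genes. Without LC normal replicate 1, 655 and 830 genes passed in these comparisons, again with no tested member. Cat was higher in OP than in LC normal tissue by 0.27 (SE 0.108, adjusted p 0.55). Hmox1 was lower in OR than in LC normal tissue by -1.65 (SE 0.655, 95% interval -3.21 to -0.08, adjusted p 0.524).

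Within the cancers, none of the 8 members passed in any of the 4 obesity comparisons, and again 0% of all genes did. Slide 4 held OP cancers only and slide 5 OR and LC cancers only, so slide and obesity group are partly confounded here. None was under an unadjusted p of 0.05 either, while 1510 to 4099 of all genes were. Without OP cancer replicate 6, 45 genes (OP less OR), 214 (OP less LC) and 516 (OP less the mean) passed in limma, with no tested member among them. The intervals show what could have been missed. For OP less OR cancers, the 95% interval was -0.38 to 0.16 for Nqo1, -0.32 to 0.13 for Gclc, -0.35 to 0.54 for Txnrd1 and -0.23 to 0.35 for Cat. It was far wider for Hmox1, at -2.07 to 0.7. For OP less LC cancers, Sod2 differed by 0.59 (-0.2 to 1.39) and Gclc by -0.19 (-0.42 to 0.04).

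Over the 12 cancers, Blvra and Nqo1 had the highest positive correlation of any pair of members (Pearson 0.8, Spearman 0.78), followed by Hmox1 and Sod2 (0.67 and 0.63). OP cancer replicate 6 was the highest cancer for both Hmox1 and Sod2. The most negative correlation was that of Cat and Nudt1 (-0.67 and -0.66). Blvra and Nudt1 had 0.08 and -0.03. Among 8662 genes with a symbol, the levels nearest to Blvra's were those of Or52u1 (Pearson 0.903), Slc8a2 (0.902) and Tas2r123 (0.843). Their probes were well above background on 3, 0 and 0 of the 12 cancers, so these are patterns of near-background signal. The levels nearest to Nudt1's were those of Aarsd1 (0.924), Alg13l1 (0.919) and Pclaf (0.886), each well above background on all 12. These correlations describe samples that share slides and scaling.

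The other genes of the same pathways were taken from 8 lists by role, of which 49 of 69 genes were measured. Between cancers and normal tissue 15 of them rose and 9 fell, and 25 did not pass, beside the 29.0% and 33.5% of all genes. Their median difference was 0.05. In the named genes below, limma's adjusted p follows the difference.

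Of the NRF2 list, 4 of 5 measured genes were higher in cancers and none was lower. Keap1, the inhibitor that marks NRF2 for destruction, rose by 0.80 (adjusted p 0.000402, and by 0.48 with scan day as a block), and the small MAF gene Mafk by 0.89 (4.61e-05). Mafk was no longer called under the other scalings (0.16, 0.1 and 0.18). Of the haem and iron list, none of 5 genes passed. Hmox2, the constitutive haem oxygenase, differed by 0, and the ferritin light chain Ftl1 by -0.17 (0.311), the iron exporter Slc40a1 by -0.19 (0.293) and the haem synthesis enzyme Alas1 by 0.2 (0.111).

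In glutathione synthesis and recycling, 3 of 6 genes rose and none fell. Ggt1, the surface enzyme that breaks down glutathione outside the cell, rose 7.14-fold (2.84, SE 0.263, adjusted p 2.34e-07), from 8.14 to 9.74 in normal tissue to 10.91 to 13.01 in cancers. Glutathione synthetase, Gss, rose by 0.86 (0.000486), or 0.56 with scan day as a block. The glutaredoxin Glrx differed by -0.51 (0.0526). In the thioredoxin and peroxiredoxin list, 2 of 11 rose and 3 fell. The peroxiredoxins split: Prdx2 (0.78, adjusted p 2.29e-05) and the mitochondrial Prdx3 (0.72, 0.003) rose (Prdx3 by 1.13 with slide as a fixed block), while Prdx6 fell by 1.11 on the log2 scale (-1.11, 7.23e-07). The mitochondrial thioredoxin Txn2 also fell (-0.71, 1.46e-05, and -0.44 after normexp with 75th-percentile scaling).

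Of 6 superoxide dismutase and glutathione peroxidase genes, 3 fell and 1 rose. Sod3, the secreted superoxide dismutase, was 19.5-fold lower in cancers (-4.28, SE 0.28, adjusted p 6.98e-09), with 10.45 to 12.22 in cancers and 15.01 to 16.84 in normal tissue. Gpx4, which acts on lipid peroxides in membranes, was 2.42-fold lower (-1.28, 8.6e-08). Gpx2, a peroxidase of epithelia, rose (1.37, SE 0.158, 2.3e-06) from 6.24 to 6.45 in normal tissue to 7.08 to 8.48 in cancers. The difference was 0.56 (0.0171) after normexp with 75th-percentile scaling. The copper chaperone Ccs differed by 0.3 (0.0715).

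Of the 5 genes that supply NADPH, the transketolase gene Tkt rose (0.65, adjusted p 0.000103), a call that was lost from the processed signal (0.35, 0.0668) and in the value table (0.37, 0.0522). Taldo1 lay at the threshold (-0.27, 0.0499) and missed it in 15 of the 20 fits that left out 1 sample. The malic enzyme Me1 differed by -0.62 (0.0618). Of 4 genes for oxidised nucleotides and bases other than Nudt1, 3 rose. Apex1, an endonuclease of base excision repair, rose by 1.15 (1.02e-05), and Mutyh by 0.43 (0.00672), a sign that turned to -0.31, -0.29 and -0.3 under the other scalings. The median of all genes was -1.51, -0.8 and -0.19 there. Mutyh thus lay above that median from the processed signal and after normexp, and below it in the value table. Ogg1, the glycosylase for oxidised guanine, differed by -0.04 (0.726). Of 7 genes for enzymes that make superoxide or peroxide, 1 rose and 2 fell. Xanthine dehydrogenase, Xdh, fell (-1.37, 0.00776) and Nox4 fell (-0.27, 0.0013), but Nox4 was well above background on only 2 of 12 cancers, and its difference was -3.35 and -1.3 under the 75th-percentile scalings. Duox2 rose by 0.44 (0.00864), which turned to -0.84 and -0.51 under the 75th-percentile scalings, still above the median of all genes (-1.51 and -0.8). Ncf1, a subunit of the phagocyte oxidase, differed by 0.28 (0.574).

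**Figure D4:**
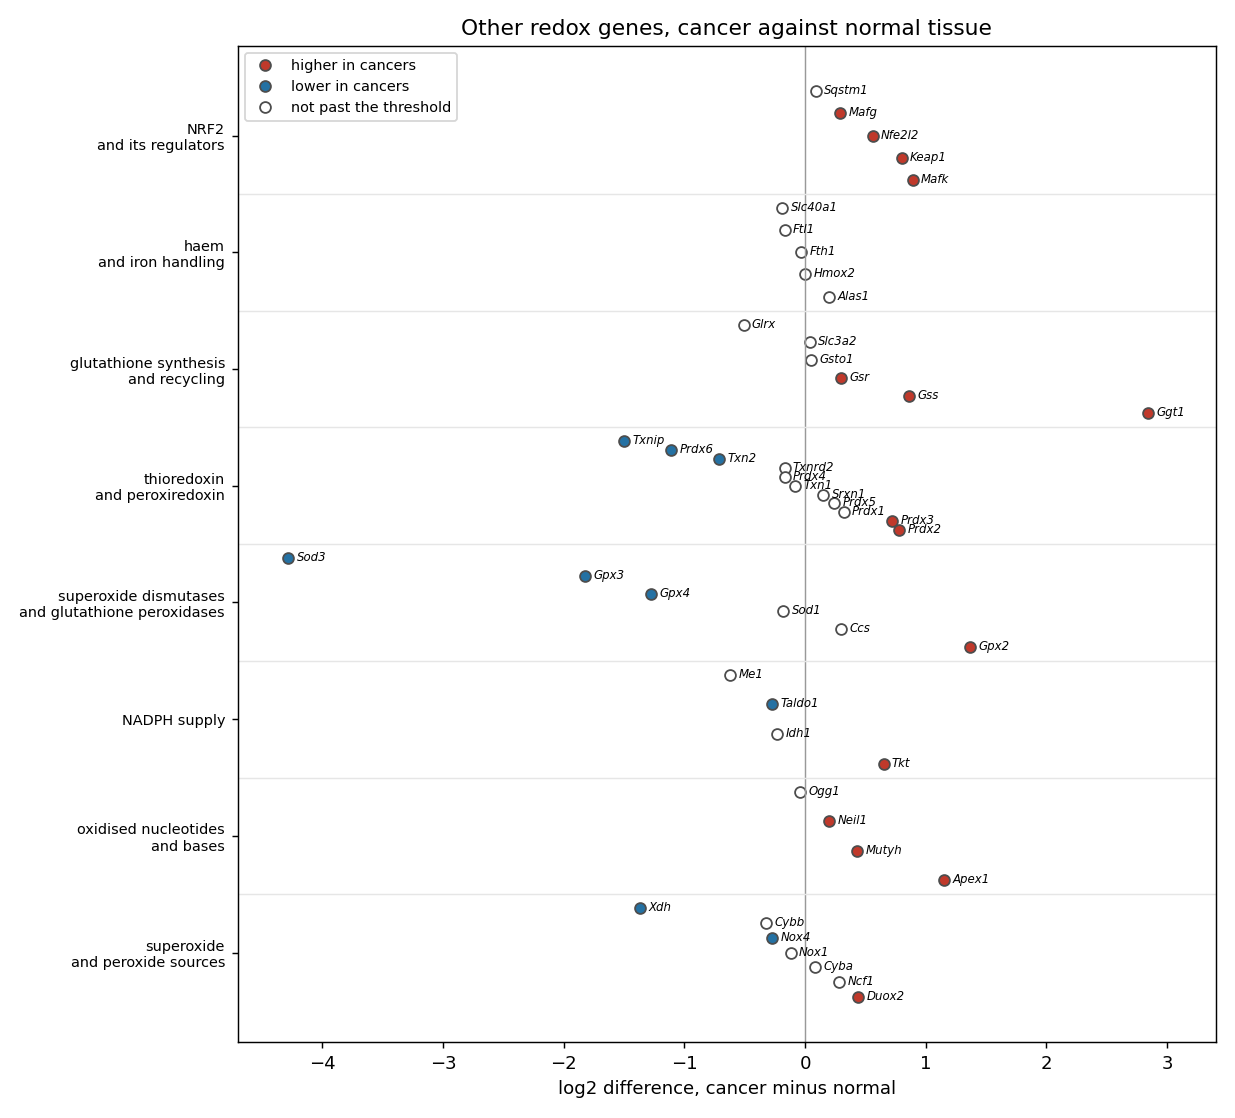
Log2 difference between cancers and normal tissue for measured genes of the 8 redox lists, in rows by list. Red marks genes higher and blue genes lower in cancers at an adjusted p under 0.05, and open circles did not pass. Ggt1 at 2.84 and Sod3 at -4.28 lie furthest out, and the signs of Mutyh and Duox2 turned under 75th-percentile scaling.

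Between obesity groups, none of these 49 genes passed in any of the 4 comparisons within cancers, in any of the 4 within normal tissue or in the interaction.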

How the data were processed

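RNA of 12 cancers and 8 normal tissues was labelled with Cy3 and read on 1-colour Agilent rat arrays. Per the file headers, the deposited scanner files hold spot and local background brightness as intensity, and flags, from Feature Extraction 9.5.1.1; the submitters' processing notes name 10.7.3.1. The authors' deposited value table is on a log2 scale. By comparison with the scanner values it is the processed signal minus each array's 75th percentile, centred per probe, although the design text names RMA. Median spot and background intensities were corrected by normexp (offset 50) and quantile-normalized with limma 3.58.1 in R 4.3.3; figures used Python 3.11.15 and matplotlib 3.10.9. Marked outlier spots were left out, as were probes that in every group were dim on more than a 0.5 share of its arrays. This left 40072 of 41012 probes; the brightest per gene gave 36043 genes, where a probe without a symbol stands for a gene. No probe was saturated. Symbols came from RefSeq accessions, of which 8991 of 13948 matched. All 20 arrays were fitted together for cancer against normal (14 residual degrees of freedom), cancers (9) and normal tissues (5) alone for obesity groups. The fit was tested on simulated data. The members and lists were chosen with earlier results of these data known. All 10 members were named, with the 2 genes of smallest adjusted p in each direction of each redox list and the 3 genes nearest to Blvra and Nudt1. The result of 1 redox gene is not reported here, though it is in the counts. Alternatives were other scalings, filters, probe rules, blocks, array weights and leaving out each sample. The number of arrays limits the precision: a typical (median SE) 95% interval extended 0.205 either way for cancer against normal, 0.257 for OP against OR cancers and 0.433 for OP against OR normal tissue.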

Additional observations from a re-analysis of the deposited data

Results flagged for a closer look

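One value stood out by a fixed rule on groups that move in opposite directions. The cancer less normal difference of Blvra was 0.17 in OR rats, where every cancer lay above every normal tissue, and -0.69 in LC rats, where every cancer lay below. The gap between them was 0.86 on the log2 scale. Blvra was chosen for its levels by obesity group, and this difference was not tested. In the 6 OP cancers, the gap of the highest or lowest sample to the nearest of the others was set against the group's range, with 0.625 as the limit (Dixon's test). It was over the limit for 0 of the 10 genes, and the largest share was 0.6, that of Sod2, whose highest sample was OP cancer replicate 6.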

How the results depend on the processing

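The counts over all 10 members here include Blvra and Nudt1, which were chosen on levels of these samples, and support nothing for them. Under 75th-percentile scaling of the processed signal and after normexp, 1 and 1 of the 10 members were higher in cancers, and 5 were lower after normexp. Of the 49 other redox genes, 16 were lower in both. Of all 36043 genes, 29135 and 29357 were called under these scalings, with only 17.7% and 17.3% of the calls higher. These counts are therefore not a shift particular to the members or the redox genes. The signs that turned were, in that order of scalings, Nqo1 (-0.44, -0.38), Gclc (-0.32, -0.39), Gclm (-2.63, -0.81), Mutyh (-0.31, -0.29) and Duox2 (-0.84, -0.51). Within OP rats Nqo1 (-0.66, -0.49) and Gclc (-0.59, -0.50) turned, in OR rats Nqo1 (-0.27, -0.38) and Gclc (-0.26, -0.47), and in LC rats Nqo1 (-0.39, -0.27) and Gclc (-0.10, -0.19). In LC rats 3 members were called after normexp with this scaling, with the value table, and with a fixed block for slide or for scan day. The value table, which measured 7 members, called 3 of them (1 higher), with 2 in OP and 2 in OR rats, and gave -0.30 for Mutyh. It called 12428 of 18317 genes between cancers and normal tissue, 39.5% of them higher. With slide as a block 1 member was lower, Gclm was at 0, and Blvra differed by -0.29 (OP less OR) and -0.26 (OP less LC) in cancers; with scan day Gclm was at -0.03.

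The replicate numbers showed no evident pairing: of 40 same-numbered pairs 5 correlated above 0.1 (median -0.06). These correlations of deviations from means of small groups cannot exclude that samples shared a rat. With the replicate block 4 members were lower, Gpx1 (-0.40, limma adjusted p 0.0384) among them, and Blvra differed by -0.26 (OP less OR) and -0.24 (OP less LC) in cancers. Leaving out single samples gave 5 to 8 members called and 2 to 5 lower, the 8 and 5 without OP cancer replicate 6, against 5 called and 2 lower with every sample. The share of all genes called between cancers and normal tissue was not worked out for the fits that left out a sample. No tested member passed between obesity groups under any alternative run; with slide as a fixed block 1 to 26 of all genes did in the cancers, and 12 from the processed signal (OP less OR). No count was run within single slides, and array weights were not fitted within 1 tissue. For these changes the cause was not tested. Signal over background limits Gclm, which was well above it on 2 of 12 cancers and 5 of 8 normal tissues.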
